A study of Mus musculus with 8 samples.

Results

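Imprinted genes are expressed mainly or only from the copy inherited from the mother or from the copy inherited from the father. The set described here holds 38 such mouse genes, given by name and found by matching the Ensembl gene identifiers of the count table to GENCODE M21 symbols. All 38 were found among the 49315 identifiers of the table, and 37 had enough counts to be tested. By their textbook expression in the mouse, 13 are maternally expressed, 24 are paternally expressed, and Gnas gives transcripts from either copy. RNA was sequenced from frozen mouse kidneys in 4 samples labelled with the genotype Control, called wild type in the extraction protocol, and 4 labelled Conditional Knockout for Kdm1a, which encodes a histone lysine demethylase that acts on methylated H3K4. The labels give no Cre driver, age, sex, strain or pooling, so the cells that lost Kdm1a and the age at which the kidneys were taken are not given in the sources used here. The libraries were made from RNA enriched with oligo d(T) beads, so they cover polyadenylated transcripts. Total counts ranged from 19524945 to 28544511 per library. Nothing in the labels says whether the 4 libraries of a group are separate animals, so the p-values measure the spread between these libraries only.

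An imprinted region usually holds an imprinting control region, a stretch of DNA methylated on the copy from 1 parent. The zinc finger protein ZFP57 and its partner TRIM28 keep that methylation through early development, and long noncoding RNAs such as H19, Meg3, Airn and Kcnq1ot1 are transcribed from the regions they help to regulate. Many imprinted genes act on growth before birth, and many are expressed at high levels in embryonic and newborn organs, the kidney among them, and fall afterwards. The counts sum both parental copies, so which copy each transcript came from was not measured.

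The promoters of 4 members that rose in the knockout hold the ZFP57 motif and are shown first. The RefSeq promoter table (GRCm38.p6) gives 250 bases before to 50 bases after each start and held 32 of the 38 members. The letters TGCCGC, searched on both strands, occurred in a promoter of 10 of those 32 members (31.2%), against 13.1% of 27025 genes in the table and 11.6% of 32851 promoters. They were present in 4 of the 9 matched members that rose and in 6 of the 23 other matched members. The 4 promoters follow, 5′ to 3′ on the gene's strand, with the motif in capitals (GCGGCA where it lies on the opposite strand). For Zdbf2 the window is that of a RefSeq start upstream of the gene model counted here, and the window at the gene model itself held 0 matches:
Meg3, chr12:109540746-109541045, plus strand: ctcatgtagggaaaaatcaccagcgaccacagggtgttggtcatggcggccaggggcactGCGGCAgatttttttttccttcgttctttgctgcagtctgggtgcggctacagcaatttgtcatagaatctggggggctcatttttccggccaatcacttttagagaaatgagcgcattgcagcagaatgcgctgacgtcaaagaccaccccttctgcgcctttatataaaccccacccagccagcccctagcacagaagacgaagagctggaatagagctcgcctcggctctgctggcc
Nnat, chr2:157559828-157560127, plus strand: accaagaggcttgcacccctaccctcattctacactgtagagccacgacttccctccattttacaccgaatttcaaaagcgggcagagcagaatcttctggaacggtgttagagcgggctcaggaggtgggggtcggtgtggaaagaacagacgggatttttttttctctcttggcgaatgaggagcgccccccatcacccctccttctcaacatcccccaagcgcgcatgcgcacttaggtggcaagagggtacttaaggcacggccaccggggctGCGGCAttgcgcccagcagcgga
Plagl1, chr10:13090582-13090881, plus strand: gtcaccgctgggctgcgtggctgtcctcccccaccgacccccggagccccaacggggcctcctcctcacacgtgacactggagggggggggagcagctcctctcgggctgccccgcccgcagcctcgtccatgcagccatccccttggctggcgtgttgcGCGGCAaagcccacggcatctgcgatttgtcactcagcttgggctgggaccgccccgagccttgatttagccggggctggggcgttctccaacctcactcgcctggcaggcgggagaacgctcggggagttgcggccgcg
Zdbf2, chr1:63200108-63200407, plus strand: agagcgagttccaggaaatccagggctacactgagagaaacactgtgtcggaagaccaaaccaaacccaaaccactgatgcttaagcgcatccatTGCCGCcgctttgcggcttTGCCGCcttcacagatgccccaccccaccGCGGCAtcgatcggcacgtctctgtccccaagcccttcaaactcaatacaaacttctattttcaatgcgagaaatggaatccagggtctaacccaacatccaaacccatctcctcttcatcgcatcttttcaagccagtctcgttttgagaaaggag
The match is of letters only, and binding or methylation at these sites was not analysed here. With the highest CpG count over the promoters of each gene, the median was 15 CpG pairs over the matched members, against 8 over all genes in the table. The 32 matched members had 50 windows, more per gene than the 32851 windows of 27025 genes. A gene with more windows has more chances of a high count or a motif match.

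Kdm1a itself was measured first, as a check of the labels. Its level was 109.8, 112.0, 119.8 and 109.7 CPM (counts scaled to the TMM-adjusted total of tested genes) in controls 1 to 4 and 94.0, 95.3, 90.9 and 94.2 CPM in knockouts 1 to 4. All knockouts were below all controls. The fall was 17.04% (log2 fold change -0.27, SE 0.054, edgeR quasi-likelihood test adjusted p = 0.0194). Kdm1a did not pass in 5 of 8 leave-one-out fits (edgeR adjusted p from 0.00691 to 0.0765), at log2 fold changes of -0.29 to -0.24. Counts over the whole gene do not show how much of the deleted part was lost. On the first principal component, which held 62.7% of the variance, control 2 lay at 9.56 and knockout 3 at 9.71, between the other controls (-78.7 to -52.4) and the other knockouts (48.3 to 68.4). Control 2 and knockouts 1 and 4 had high Xist and low Y-linked counts, a female pattern, and the other 5 libraries a male pattern. The 11 rises described next were also called after adjustment for Y-linked expression.

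Of the 37 tested imprinted genes, 11 were higher in the knockout and 0 were lower at an adjusted p under 0.05. The 11 are 29.7% of those tested, where 6.61% of all 18485 tested genes rose, 8.27% fell and 14.9% changed in either direction. They were Meg3, Rian, Mirg, Plagl1, Zdbf2, Peg10, Nnat, Asb4, Ppp1r9a, Sgce and Ndn, with rises of 1.35-fold to 3.17-fold, 6 of them by at least 2-fold. The median log2 fold change of the 37 was 0.36 (range -0.69 to 1.66), and 30 of them were above 0. Over all tested genes the median was 0.0044 and 50.5% were above 0. At an unadjusted p under 0.05 there were 18 members (48.6%), all 18 of them higher, against 35.1% of all tested genes in either direction. In 10 of the 37, all 4 knockouts were above all 4 controls, against 9.29% of all tested genes, and in 0 were they all below, against 9.58%. All 37 passed the filter on low counts in every library of both groups, so no tested member entered through its knockout level alone.

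**Figure D1:**
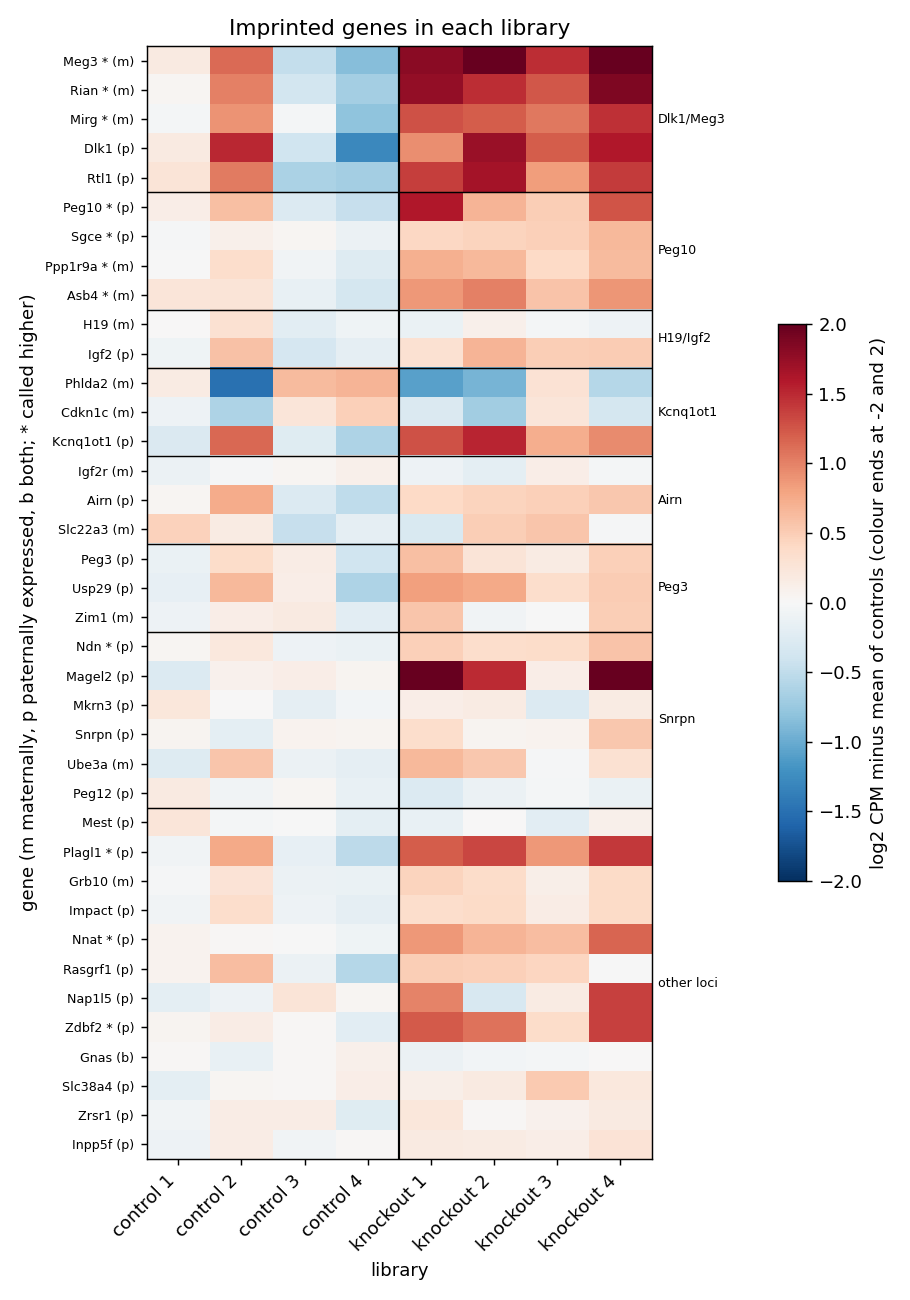
Level of each of the 38 imprinted genes (rows, grouped by region) in each of the 8 libraries (columns), as log2 CPM minus the mean of the controls, with m, p and b for maternally, paternally and either-copy expressed genes and an asterisk for the 11 that rose. The 4 knockouts are red for the Dlk1/Meg3 and Peg10 regions, Plagl1 and Nnat, and control 2 is red for many of the same genes.

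The rises came from both the maternally and the paternally expressed genes. Among the 13 maternally expressed genes 5 rose, 9 were above 0 and the median log2 fold change was 0.33. Among the 23 tested paternally expressed genes 6 rose, 21 were above 0 and the median was 0.44. The difference between the classes was not tested. The classes are not specific to the kidney: Ube3a, counted here as maternally expressed, is imprinted only in neurons. The rises lay mainly at Peg10 (4 of 4 members) and Dlk1/Meg3 (3 of 5), with 1 of 5 tested near Snrpn and 3 of 12 that stand alone here. Members of a region lie together, so the 11 rises are not 11 separate loci. No member rose at H19/Igf2 (0 of 2), Kcnq1ot1 (0 of 3), Airn (0 of 3) or Peg3 (0 of 3). These counts cover the members only, not every gene of a region.

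**Figure D2:**
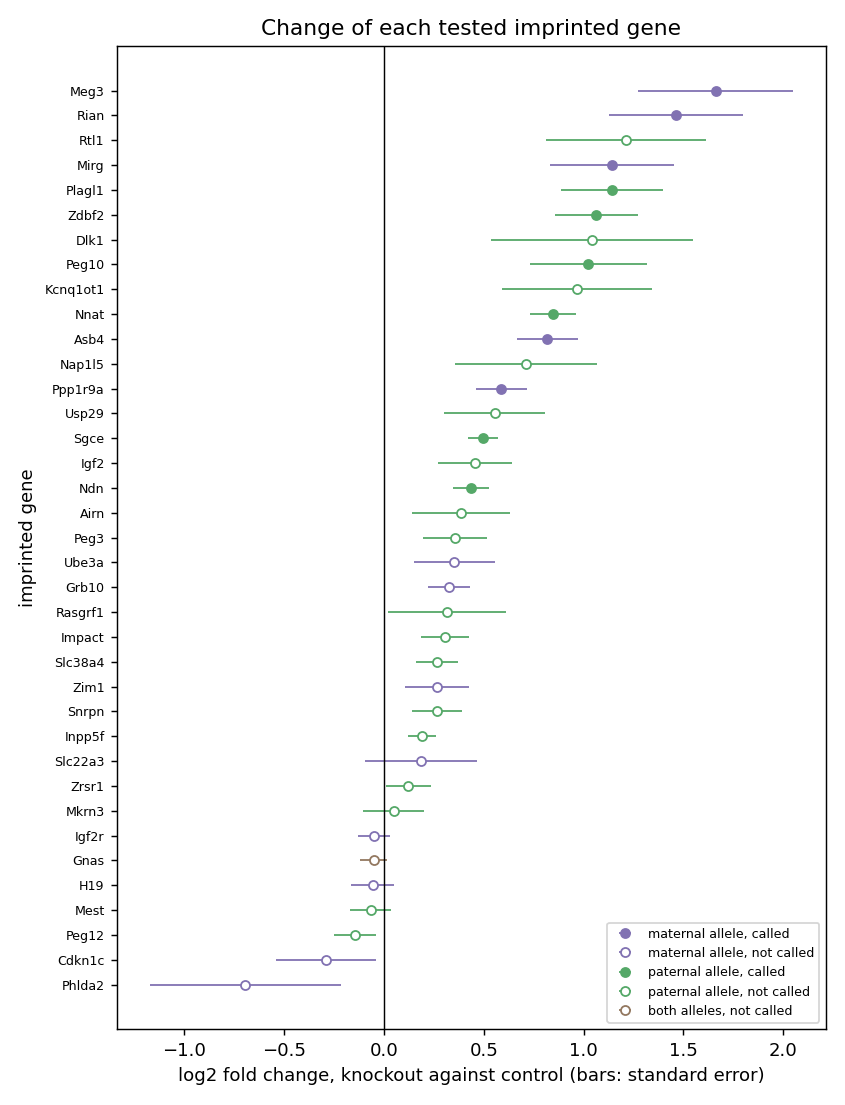
Log2 fold change of knockout against control for the 37 tested imprinted genes (points; bars are standard errors), coloured by expressed parental copy and filled where the adjusted p was under 0.05. Filled points of both parental classes lie between 0.44 and 1.66, and Phlda2 at -0.69 and Cdkn1c at -0.29 are the lowest, both open.

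The tests rested on which libraries were compared. With each library left out in turn, the number of imprinted genes that rose was 3, 23, 2 and 3 without controls 1, 2, 3 and 4. It was 2, 3, 13 and 2 without knockouts 1, 2, 3 and 4. Over all genes, the number that rose ranged from 110 to 3486, and the number called in either direction from 153 to 7084. The counts of 23 and 13 include Magel2, which passed the filter on low counts in those fits. Without control 2, the log2 fold change of Igf2 was 0.69 (adjusted p = 0.00146), of Kcnq1ot1 1.52 (adjusted p = 0.00122) and of Dlk1 1.78 (adjusted p = 0.00462) by edgeR, and Phlda2 was called lower (-0.995, adjusted p = 0.0488). Nnat and Sgce were called in all 8 of these fits. Control 2 was the highest control for 10 of the 11 genes that rose, and knockout 3 the lowest knockout for 9 of them. The same held for 68.6% and 50.2% of all 1222 genes that rose.

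Markers of some cell types differed between the groups. The proximal tubule and podocyte sums separated them, while the stromal, nephron progenitor, adrenal and neuronal sums overlapped. The sums of thick ascending limb, collecting duct, endothelial, leukocyte and adipose markers also overlapped. The summed level of 9 proximal tubule markers was 356 to 1441 CPM in controls, lowest in control 2, and 37.1 to 199.95 CPM in knockouts, and 9 of 9 fell. The sum of 10 stromal markers was 3056 to 4190 CPM in controls, highest in control 2, and 3545 to 5828 CPM in knockouts, and 3 of 10 rose. Nephron progenitor markers (7 genes) summed to 428 to 651 CPM in controls and 477 to 687 CPM in knockouts, and 2 of 7 fell. Podocyte markers (6 genes) summed to 396 to 601 CPM in controls and 292 to 362 CPM in knockouts, and 2 of 6 fell. Thick ascending limb markers (4 genes) summed to 197 to 980 CPM in controls and 5.47 to 273 CPM in knockouts, and 3 of 4 fell. Of the collecting duct markers 2 of 6 rose, of the endothelial 1 of 6 fell, and of the leukocyte 1 of 4 tested rose. The 1 adipose marker tested did not pass. Over all tested genes 6.61% rose and 8.27% fell. The 13 adrenal markers, a neighbouring organ's, summed to 25.5, 28.0, 29.7 and 162 CPM in controls (162 in control 4) and to 22.8, 24.2, 432 and 2825 CPM in knockouts (432 in knockout 4, 2825 in knockout 1), and 0 of 11 tested passed. Cyp11b1 and Cyp11b2, which make corticosterone and aldosterone, were at 0 in control 1, and Cyp11b2 also in control 2 and knockout 2. The sum of 6 neuronal markers was 23.6 to 60.4 CPM in controls and 56.7 to 213 CPM in knockouts, and 2 of 5 tested rose. With the adrenal level as a covariate, calls over all genes went from 2751 to 1112, and those higher in the knockout from 1222 to 554. In that fit 3 of the 11 rises passed (Nnat, Sgce and Asb4). The other 8 had edgeR adjusted p-values of 0.0527 to 0.161, and the median log2 fold change over the imprinted genes was 0.41, against 0.36 without the covariate. Meg3 was then at 1.80, Rian at 1.41, Mirg at 1.18 and Plagl1 at 1.17 on the log2 scale, while Peg10 was at 0.71, where it was at 1.02 without it. Without the 3 adrenal-rich libraries 0 of 11 passed in a fit that called 1 gene of all, at a median of 0.25 over the imprinted genes. The part of these cells in the rises was otherwise not tested, and in bulk tissue more cells of a type and more RNA per cell cannot be told apart.

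**Figure D3:**
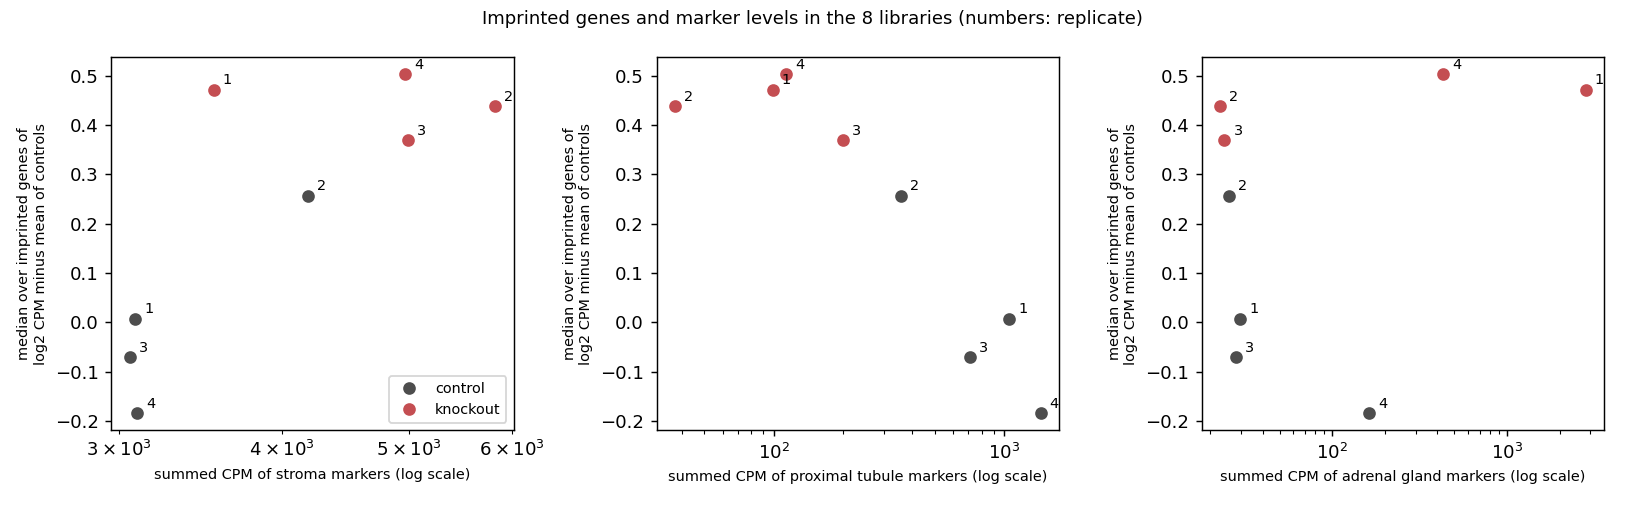
Median over the imprinted genes of log2 CPM minus the control mean (vertical) against the summed CPM of stromal, proximal tubule and adrenal markers (horizontal, log scale) in the 8 libraries, numbered by replicate. The knockouts lie at 0.37 to 0.50 and the controls at -0.18 to 0.26, with control 2 the highest control and also the control with the most stromal and the least proximal tubule signal.

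The Dlk1/Meg3 region on chromosome 12 held the largest rises among the 37 imprinted genes of the main test, which leaves out Magel2. Its long noncoding RNAs Meg3, Rian and Mirg come from the maternal copy and host small RNAs. Its protein-coding genes Dlk1 (a Notch-like membrane protein of progenitor cells) and Rtl1 (a retrotransposon-derived protein needed in the placenta) come from the paternal copy. Meg3 (chr12:109541001-109571726, plus strand) was at 119, 231, 75.8 and 58.5 CPM in controls 1 to 4 and at 366, 454, 293 and 420 CPM in knockouts 1 to 4. Every knockout was above every control, and control 2 was the highest control. The rise was 3.17-fold (log2 fold change 1.66, SE 0.388, edgeR adjusted p = 0.0277). Rian (chr12:109603940-109661716, plus strand), the host of many small nucleolar RNAs, was at 77.5, 152, 58.8 and 47.5 CPM in controls and at 257, 211, 179 and 278 CPM in knockouts. Again no knockout reached down to a control (log2 fold change 1.46, SE 0.336, edgeR adjusted p = 0.0268). Mirg (chr12:109729764-109749460, plus strand), a host of microRNAs, was at 4.75, 9.18, 4.76 and 2.77 CPM in controls and 11.995, 11.4, 10.3 and 13.7 CPM in knockouts, without overlap (log2 fold change 1.14, SE 0.310, edgeR adjusted p = 0.0404). Each of the 3 lost its call in 6 of the 8 fits that left out 1 library, at log2 fold changes of 1.43 to 2.18 for Meg3, 1.26 to 1.91 for Rian and 0.93 to 1.53 for Mirg.

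The paternally expressed genes of the region were higher on average with overlapping groups. Dlk1 (chr12:109452823-109463336) was at 64.1, 160, 42.7 and 23.1 CPM in controls and 108, 187, 131 and 172 CPM in knockouts. Control 2 lay above knockouts 1 and 3, and the difference did not pass (log2 fold change 1.04, SE 0.504, edgeR adjusted p = 0.172). The highest Dlk1 level was in knockout 2, where the adrenal markers were at their lowest sum (22.8 CPM). Knockout 4, an adrenal-rich library, had the next highest level. Knockout 1, with the highest adrenal sum, had the lowest level of the knockouts. Control 4, with the highest adrenal sum of the controls, had the lowest level of the controls. The part of adrenal cells in the Dlk1 level was not tested. Rtl1 (chr12:109589194-109600330, minus strand) was at 1.64, 2.88, 0.85 and 0.82 CPM in controls and 3.67, 4.47, 2.49 and 3.71 CPM in knockouts, from 18 to 103 counts per library. Control 2 again lay above the lowest knockout (log2 fold change 1.21, SE 0.402, edgeR adjusted p = 0.0701). The ratio of Meg3 to Dlk1 counts was 1.86, 1.44, 1.78 and 2.53 in controls and 3.39, 2.43, 2.24 and 2.45 in knockouts, so the groups overlapped (log2 difference 0.48, exact two-sided permutation p = 0.114).

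**Figure D4:**
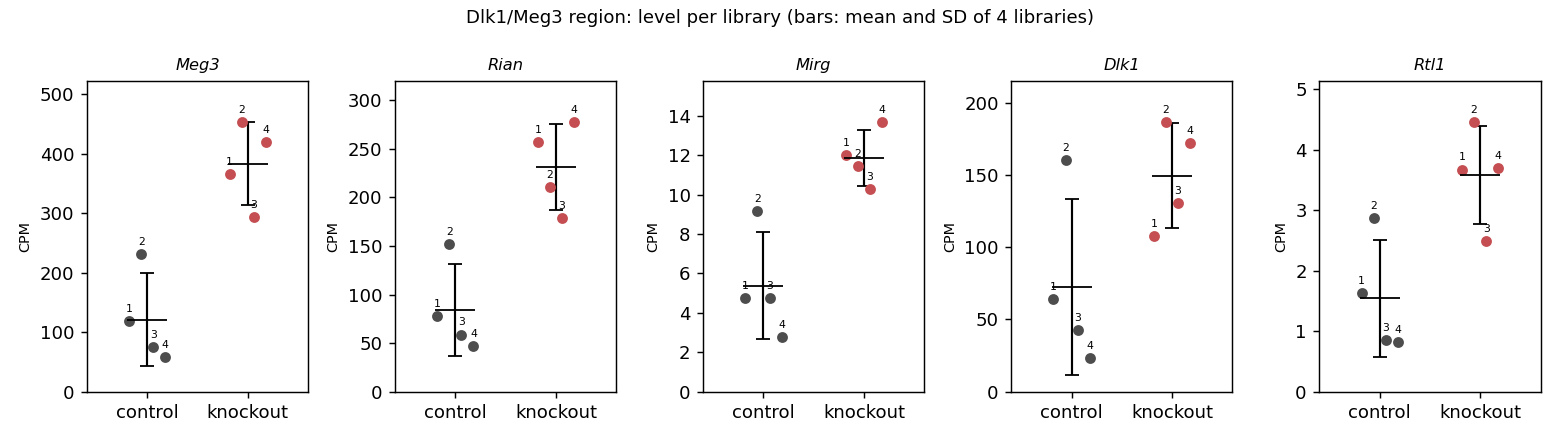
CPM of the 5 genes of the Dlk1/Meg3 region in each library (points numbered by replicate; bars are the mean and SD of 4 libraries). For Meg3, Rian and Mirg all knockouts lie above all controls, while for Dlk1 and Rtl1 control 2 lies among the knockouts.

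The small RNAs carried by these transcripts were not measured by this assay. RefSeq places 3 mature microRNAs in Meg3, 6 in Rian and 26 in Mirg on the host's strand, and 11 opposite Rtl1, where some are transcribed from the maternal copy against the paternal Rtl1 transcript. Within the spans of these genes, the only seed (bases 2 to 8) shared by more than 1 microRNA belonged to miR-453 and miR-496a-5p of Mirg. The stretches between the genes, such as that from Rian to Mirg, were not searched. That pair, the miR-370 strand of Rian, miR-127-3p opposite Rtl1 and miR-770-5p of Meg3 are printed to show what the transcripts that rose, and Rtl1's opposite strand, can yield, 5′ to 3′ with the seed in capitals (RefSeq, GRCm38.p6):
miR-453, chr12:109735669-109735692, plus strand: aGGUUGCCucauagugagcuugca
miR-496a-5p, chr12:109739132-109739152, plus strand: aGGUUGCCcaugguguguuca
miR-370-3p, chr12:109618305-109618326, plus strand: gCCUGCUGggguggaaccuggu
miR-127-3p, chr12:109592888-109592909, plus strand: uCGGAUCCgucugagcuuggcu
miR-770-5p, chr12:109563710-109563731, plus strand: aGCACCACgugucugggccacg
The library kit named in the labels is not stated to keep strand, so counts of Rtl1 and of RNAs from its opposite strand cannot be told apart.

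At the Peg10 region on chromosome 6, 4 of 4 members rose, from both parental classes. Tfpi2, Pon2 and Pon3, from the list of other genes in or beside the imprinted regions, did not pass. Their log2 fold changes were -0.42, 0.19 and -0.005 (edgeR adjusted p = 0.239, 0.0957 and 0.991). They were named after their values were seen. Peg10 (chr6:4747306-4760517, plus strand), a retrotransposon-derived gene of the placenta, is paternally expressed. It was at 30.4, 41.9, 22.8 and 20.2 CPM in controls and 84.5, 44.4, 39.0 and 66.3 CPM in knockouts. Knockout 3 lay below control 2, so the groups overlapped (log2 fold change 1.02, SE 0.291, edgeR adjusted p = 0.0463). Sgce (chr6:4674350-4747207, minus strand), epsilon-sarcoglycan, is also paternally expressed and starts 99 bases from Peg10 on the other strand. It was at 40.9, 44.5, 42.8 and 38.2 CPM in controls and 55.6, 56.3, 57.7 and 64.8 CPM in knockouts. The groups lay well apart relative to their spread (41.6 ± 2.69 against 58.6 ± 4.23 CPM, SD, n = 4 each), with a log2 fold change of 0.49, SE 0.075 and an edgeR adjusted p of 0.0112. With offsets for GC content and length, the log2 fold change of Sgce was 0.16 and its call was lost (adjusted p = 0.275).

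The maternally expressed neighbours also rose. Ppp1r9a (chr6:4902917-5165661), neurabin, an actin-binding partner of protein phosphatase, was at 71.2, 91.5, 68.4 and 59.9 CPM in controls and 118, 113, 94.4 and 112 CPM in knockouts. Knockout 3 lay just above control 2 (log2 fold change 0.59, SE 0.129, edgeR adjusted p = 0.0238). Asb4 (chr6:5383386-5433022), an adaptor of a ubiquitin ligase, was at 25.0, 25.3, 19.1 and 16.5 CPM in controls and 38.7, 42.7, 31.4 and 38.9 CPM in knockouts. The groups did not overlap (log2 fold change 0.82, SE 0.154, edgeR adjusted p = 0.0179). The ratio of Peg10 to Sgce counts did not separate the groups (log2 difference 0.52, exact two-sided permutation p = 0.171).

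H19 was the most abundant imprinted gene per length and did not pass the test, whereas its ratio to Igf2 separated the groups. H19 (chr7:142575529-142578143), a maternally expressed noncoding RNA, was at 2280, 2787, 1953 and 2135 CPM in controls and 2062, 2423, 2212 and 2105 CPM in knockouts. All knockouts lay within the range of the controls (log2 fold change -0.06, SE 0.108, edgeR adjusted p = 0.730). Igf2 (chr7:142650766-142666816), the paternally expressed fetal growth factor, was at 584, 929, 493 and 549 CPM in controls and 766, 992, 867.8 and 882 CPM in knockouts. Control 2 lay above 3 knockouts (log2 fold change 0.46, SE 0.186, edgeR adjusted p = 0.117). The ratio of H19 to Igf2 counts was 3.91, 2.999, 3.97 and 3.89 in controls and 2.69, 2.44, 2.55 and 2.39 in knockouts. Every knockout was below every control (log2 difference -0.54, exact two-sided permutation p = 0.0286, the smallest that 4 against 4 libraries can give). Of 8 ratios within regions, chosen after the values were seen, this was the only one whose groups did not overlap, and after adjustment over the 8 its p was 0.229.

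**Figure D5:**
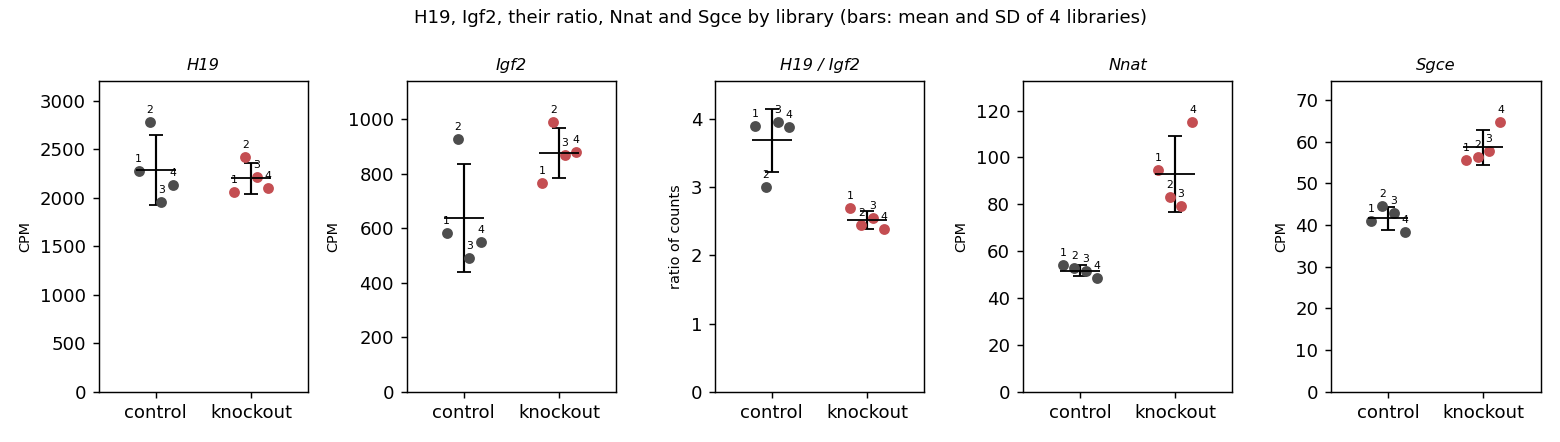
CPM of H19 and Igf2, the ratio of their counts, and CPM of Nnat and Sgce in each library (points numbered by replicate; bars are the mean and SD of 4 libraries). H19 and Igf2 overlap between groups, while the ratio, 2.999 to 3.97 in controls and 2.39 to 2.69 in knockouts, does not.

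In the neighbouring Kcnq1ot1 region on chromosome 7, 0 of the 3 members passed. Kcnq1ot1 (chr7:143212155-143296549), the paternally expressed noncoding RNA that silences its neighbours in cis, was at 48.9, 133, 50.4 and 38.9 CPM in controls and 145, 173, 98.7 and 115 CPM in knockouts. Control 2 lay above 2 of the knockouts, far from the other controls (log2 fold change 0.97, SE 0.375, edgeR adjusted p = 0.104). Cdkn1c (chr7:143458339-143461050), the maternally expressed inhibitor of cyclin-dependent kinases, was at 451, 315, 570 and 677 CPM in controls and 397, 299, 571 and 380 CPM in knockouts, with overlapping groups (log2 fold change -0.29, SE 0.251, edgeR adjusted p = 0.429). Phlda2 (chr7:143501545-143503150), a growth-restraining placental gene also expressed from the maternal copy, was at 3.52, 1.07, 4.92 and 5.09 CPM in controls and 1.44, 1.61, 3.84 and 2.09 CPM in knockouts (log2 fold change -0.69, SE 0.479, edgeR adjusted p = 0.322). Control 2 had the lowest Phlda2 level of all 8 libraries. The ratio of Kcnq1ot1 to Cdkn1c counts did not separate the groups (log2 difference 1.39, exact two-sided permutation p = 0.114).

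Plagl1, Nnat, Zdbf2 and Ndn were the other genes that rose, all paternally expressed. Plagl1 (chr10:13060504-13131694), a zinc finger transcription factor that acts on a network of imprinted genes, was at 180, 322, 170 and 132 CPM in controls and 441, 476, 347 and 507 CPM in knockouts. Knockout 3 lay just above control 2 (log2 fold change 1.14, SE 0.254, edgeR adjusted p = 0.0251). Nnat (chr2:157560078-157562522), neuronatin, a small membrane protein of the endoplasmic reticulum, was at 54.1, 52.7, 51.3 and 48.4 CPM in controls and 94.4, 83.0, 79.2 and 115 CPM in knockouts. The controls were tight, control 2 included, and all knockouts were above them (51.6 ± 2.43 against 93.0 ± 16.2 CPM, SD, n = 4 each). Nnat had the smallest adjusted p of the imprinted genes (log2 fold change 0.85, SE 0.115, edgeR adjusted p = 0.00863).

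Zdbf2 (chr1:63273265-63314576), whose dose affects growth after birth through the brain, was at 7.42, 7.88, 7.22 and 6.14 CPM in controls and 16.9, 15.3, 9.24 and 18.5 CPM in knockouts. Knockout 3 was close to the controls and the other knockouts were far above (log2 fold change 1.06, SE 0.208, edgeR adjusted p = 0.0192). Ndn (chr7:62346569-62350262), necdin, a growth suppressor of the MAGE family in the Prader-Willi region, was at 76.8, 86.0, 69.4 and 67.7 CPM in controls and 104, 95.1, 96.7 and 111 CPM in knockouts. It rose by 1.35-fold, the smallest of the 11 rises (log2 fold change 0.44, SE 0.089, edgeR adjusted p = 0.0205).

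Other genes of the Snrpn region did not pass. Magel2, a neighbour of Ndn, was the member left out of the main test for low counts. It was at 0.16, 0.23, 0.24 and 0.23 CPM in controls and 1.82, 0.75, 0.24 and 1.55 CPM in knockouts, from 4 to 43 counts per library. Knockouts 1, 2 and 4 were high, and knockout 3 equalled control 3 to the precision printed. With no filter on low counts its log2 fold change was 2.28 (SE 0.574, edgeR adjusted p = 0.0338). Snrpn, a splicing protein gene, Ube3a, a ubiquitin ligase whose imprinting is confined to neurons, Mkrn3, a zinc finger gene, and Peg12 had log2 fold changes of 0.27, 0.35, 0.05 and -0.14, with edgeR adjusted p-values of 0.169, 0.241, 0.839 and 0.355. Control 2 was the lowest control for Snrpn, at 18.5 CPM where the others were at 21.8 to 22.1 CPM, and the highest for Ube3a, at 85.1 CPM where the others were at 48.6 to 53.8 CPM.

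At the Peg3 region, 0 of 3 members passed. Peg3 (chr7:6703892-6730431, minus strand), a zinc finger gene of growth and maternal behaviour, and Usp29 (chr7:6730578-6967219, plus strand), a deubiquitinase gene, are both paternally expressed. Their starts lie 147 bases apart on opposite strands, so their RefSeq promoter windows share 263 bases at chr7:6730370-6730632. The shared stretch, plus strand of GRCm38.p6, holds no TGCCGC on either strand:
Peg3/Usp29, plus strand: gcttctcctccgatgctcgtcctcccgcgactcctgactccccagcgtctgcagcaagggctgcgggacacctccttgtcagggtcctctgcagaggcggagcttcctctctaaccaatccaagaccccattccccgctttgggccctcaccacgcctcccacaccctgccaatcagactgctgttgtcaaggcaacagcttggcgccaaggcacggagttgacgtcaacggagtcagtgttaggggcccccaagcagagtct
Peg3 was at 522, 735, 630 and 434 CPM in controls and 860, 677, 640 and 792 CPM in knockouts (log2 fold change 0.36, edgeR adjusted p = 0.151). Usp29 was at 6.31, 11.1, 7.71 and 4.59 CPM in controls and 12.54, 12.05, 8.996 and 10.04 CPM in knockouts (log2 fold change 0.55, edgeR adjusted p = 0.151). Control 2 overlapped the knockouts for both genes of the shared promoter. Zim1, a maternally expressed zinc finger gene next to them, had a log2 fold change of 0.27 (edgeR adjusted p = 0.256).

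In the Airn region on chromosome 17, 0 of 3 members passed either. Igf2r, the maternally expressed receptor that removes IGF2 by endocytosis, was at 132.7 ± 8.72 CPM in controls and 128.1 ± 12.4 CPM in knockouts (SD, n = 4 each), with a log2 fold change of -0.05 and an edgeR adjusted p of 0.685. Airn, the paternal noncoding RNA that overlaps it, was at 11.8, 19.4, 9.48 and 8.04 CPM in controls and 15.1, 15.8, 16.0 and 16.8 CPM in knockouts. Control 2 lay above all knockouts and the other 3 controls lay below them (log2 fold change 0.39, SE 0.244, edgeR adjusted p = 0.280). Slc22a3, an organic cation transporter gene, had a log2 fold change of 0.19 (edgeR adjusted p = 0.658).

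Among the genes that stand alone here, Grb10, an adaptor that restrains insulin and IGF receptor signalling, came closest to the threshold. It was at 461, 567, 432 and 426 CPM in controls and 638, 607, 510 and 609 CPM in knockouts. Control 2 lay above knockout 3 (log2 fold change 0.33, SE 0.107, edgeR adjusted p = 0.0681). Nap1l5, a histone chaperone family gene, was at 2.05, 2.18, 2.83 and 2.41 CPM in controls and 4.77, 1.86, 2.63 and 6.19 CPM in knockouts. It was high in knockouts 1 and 4 and within or below the control range in knockouts 2 and 3 (log2 fold change 0.71, edgeR adjusted p = 0.184). Knockouts 1 and 4 had the most adrenal marker RNA and were also the knockouts with a female pattern. These traits cannot be told apart among the knockouts. The log2 fold change of Nap1l5 was 0.41 with the Y-linked covariate and 0.19 with the adrenal covariate (edgeR adjusted p = 0.413 and 0.691). Inpp5f, a phosphoinositide phosphatase gene, Impact, a translation regulator, and Slc38a4, an amino acid transporter gene, had log2 fold changes of 0.19, 0.31 and 0.27, with edgeR adjusted p-values of 0.0971, 0.105 and 0.108. Rasgrf1, a Ras exchange factor gene with 15 to 42 counts per library, and Zrsr1, a splicing factor gene, had values of 0.32 and 0.12 (edgeR adjusted p = 0.463 and 0.458). Mest, a hydrolase gene, and Gnas, the stimulatory G protein alpha subunit, had values of -0.07 and -0.05 (edgeR adjusted p = 0.669 and 0.597).

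Per length, the imprinted genes kept a similar order in both groups at the top. On the scale of CPM per kilobase of the deposited gene length, H19 was at 965 ± 151 in controls and 928 ± 67.9 in knockouts, Mest at 248 ± 31.9 and 237 ± 23.4, Cdkn1c at 247 ± 76.3 and 202 ± 56.1, and Igf2 at 112 ± 34.5 and 153 ± 16.2 (SD, n = 4 each). H19 stood above its neighbours in that order beyond their spread, whereas Mest and Cdkn1c did not differ beyond theirs in either group. Plagl1 went from the 9th level in controls (25.7 ± 10.6) to the 6th in knockouts (56.6 ± 8.86). Exons of 12 of the 38 members share bases with another counted gene, 4 of them among the 11 that rose, and for those 4 the neighbour held at most 28 counts over all libraries.

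Of 19 genes that establish, keep or erase imprints, 18 were tested, 2 rose and 1 fell, with a median log2 fold change of 0.03. The 3 are 16.7% of those tested, near the 14.9% of all tested genes. Zfp57, which keeps methylation at imprinting control regions, rose from 53.3 ± 7.96 to 82.5 ± 6.17 CPM (SD, n = 4 each), a log2 fold change of 0.63 with an edgeR adjusted p of 0.0144. Tet1, an enzyme that oxidises methylated cytosine, rose from 25.8 ± 3.98 to 39.3 ± 4.25 CPM (log2 fold change 0.60, edgeR adjusted p = 0.0196). Kdm1b, the relative of Kdm1a that is needed to set imprints in the oocyte, fell from 26.8 ± 3.09 to 20.3 ± 1.38 CPM (log2 fold change -0.40, edgeR adjusted p = 0.0346). Of the 18 tested, all knockouts were above all controls in 3 and below them in 3, with Zfp57, Tet1 and Kdm1b among these. Over all tested genes those shares were 9.29% and 9.58%.

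Of 33 other genes in or beside the imprinted regions, 28 were tested, 3 rose and 2 fell, with a median log2 fold change of -0.004. The 5 are 17.9% of those tested, near the 14.9% of all tested genes. The 3 that rose are 10.7%, against 6.61% of all tested genes and 29.7% of the tested members. This list holds imprinted genes too, such as Klf14 and Peg13. The share among the 38 members is therefore not that of all imprinted genes. Slc22a2, a tubular organic cation transporter gene beside Slc22a3, fell from 29.5 ± 20.4 to 0.81 ± 0.76 CPM (log2 fold change -5.11, edgeR adjusted p = 0.0120). Klf14, a maternally expressed transcription factor gene near Mest, rose from 6.18 ± 1.79 to 13.7 ± 3.15 CPM (log2 fold change 1.14, edgeR adjusted p = 0.0207). Peg13, a paternally expressed noncoding RNA, rose from 25.7 ± 1.78 to 36.0 ± 4.81 CPM (log2 fold change 0.49, edgeR adjusted p = 0.0219). The remaining calls, named after their values were seen, were Trpm5, which rose (0.89), and Cobl, which fell (-0.91).

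Of 14 genes of insulin-like growth factor signalling, all 14 were tested, 2 rose and 0 fell, with a median log2 fold change of 0.19. The 2 are 14.3% of those tested, near the 14.9% of all tested genes. Igfbp6, a binding protein that prefers IGF2, rose from 47.1 ± 25.5 to 123.7 ± 25.4 CPM (SD, n = 4 each), a log2 fold change of 1.39 with an edgeR adjusted p of 0.0314. Insr, the insulin receptor, rose from 62.4 ± 11.2 to 87.8 ± 12.6 CPM with overlapping groups (log2 fold change 0.49, edgeR adjusted p = 0.0477). Igfbp7, the next by adjusted p, was at 443 ± 136 CPM in controls and 270 ± 65.6 CPM in knockouts and did not pass (log2 fold change -0.71, edgeR adjusted p = 0.0702).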

How the data were processed

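Gene counts were deposited by the authors as whole numbers per Ensembl gene in 1 table per library and 1 table of the series, with identical values. The submitters' processing notes name Trimmomatic 0.36, STAR 2.5.2b, featureCounts of Subread 1.5.2, DESeq2 and the build GRCm38; strand settings are not given in the sources used here. Symbols and coordinates came from GENCODE M21 (GRCm38).

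Counts were compared between the 4 knockout and 4 control libraries in R 4.3.3 by edgeR 4.0.16 (quasi-likelihood test), after TMM scaling and edgeR's default filter on low counts (at least 0.412 CPM in 4 libraries and 15 counts in all). Benjamini-Hochberg adjustment ran over all 18485 tested genes, with calls at 0.05. CPM values use the TMM-scaled totals of the tested genes. Standard errors were taken from the F statistics. The procedure was tested on simulated data, where it called 62.2% of 90 genes changed by 1 on the log2 scale and 94.1% of 101 changed by 2, among 18203 genes of this comparison. Ratios were compared by exact two-sided permutation over the 70 assignments of libraries. The text names all members, Kdm1a and up to 3 genes with the smallest adjusted p from each of 3 further lists. It also names a few further genes of those lists after their values were seen. Members and lists were chosen with earlier results of these data known. Alternatives used DESeq2 1.42.0 (test, and size factors alone), limma 3.58.1 (voom with sample weights), other filters, a replicate block, covariates, offsets for GC content and length, and left-out libraries.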

Additional observations from a re-analysis of the deposited data

Results flagged for a closer look

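Across 78 groups of 4 libraries (38 imprinted genes and Kdm1a in each genotype), 5 held a library that stood apart from the other 3 by Dixon's criterion at 95%, which chance alone meets in about 1 of 20 groups. Control 2 was involved in 3 of them. It was the highest control for Kcnq1ot1, at 133 CPM against 38.9 to 50.4 CPM in the others, and for Ube3a, at 85.1 CPM against 48.6 to 53.8 CPM, and the lowest for Snrpn, at 18.45 CPM against 21.8 to 22.1 CPM. Knockout 3 was the lowest knockout for Mkrn3, at 5.57 CPM against 7.35 to 7.53 CPM. Knockout 4 was the lowest for Rasgrf1, at 1.04 CPM against 1.45 to 1.52 CPM, a gene with 15 to 42 counts per library.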

How the results depend on the processing

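The count of 11 imprinted genes that rose and 0 that fell was the same with DESeq2 size factors, genes limited to a mean over 1 CPM, the Y-linked covariate and the series table. With no filter 12 rose, Magel2 added, and 10 were called with GC and length offsets. The replicate block gave 15 imprinted genes, all higher (6 maternally, 9 paternally expressed), 3229 genes in all and Kdm1a at -0.27. After each gene's group mean was subtracted, the remaining log2 CPM of same-numbered control and knockout libraries correlated at -0.11 to 0.33. The correlation was over 0.1 for 2 of 4 numbers, so the numbers were not taken to pair libraries.

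Leaving out 1 library at a time gave 153 to 7084 calls (110 to 3486 higher, 43 to 3598 lower), with 2 to 24 imprinted genes called, 2 to 23 of them higher and 0 to 1 lower, from 0 to 7 maternally and 2 to 16 paternally expressed genes. The medians were 0.29 to 0.55 over all imprinted genes, 0.38 to 0.62 over the paternally expressed, 0.26 to 0.43 over genes that stand alone and 0.18 to 0.41 over the Snrpn region. Kdm1a ran from -0.29 to -0.24 and lost its call in 5 of the 8 fits. H19 ran from -0.13 to 0.051, Mest from -0.13 to 0.035 and Mkrn3 from -0.011 to 0.16. The highest counts (24 and 23, without control 2), the 13 without knockout 3 and the 25 given below include Magel2, which passed the filter in those fits.

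DESeq2 called 4506 genes (1997 higher, 2509 lower) and 13 imprinted genes. limma-voom with sample weights called 8302 genes (4061 higher, 4241 lower) and 24 imprinted genes (23 higher, 1 lower; 16 higher from the paternal copy), with a median of 0.51 and H19 at 0.041. The adrenal covariate left 1112 calls (554 higher, 558 lower) and 3 imprinted genes, 3 higher, of which 1 was maternally and 2 paternally expressed, with H19 at 0.010; the medians were 0.41 over the imprinted genes and 1.38 at Dlk1/Meg3, against 0.36 and 1.21 without it. GC and length offsets put H19 at 0.077, Ube3a at -0.12 and Peg12 at 0.0015.

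Without control 2 and knockout 3 together there were 7903 calls (3791 higher, 4112 lower) and 25 imprinted genes (23 higher, 2 lower; 16 higher from the paternal copy). The medians were 0.55 over all imprinted genes, 0.62 paternal, 1.84 at Dlk1/Meg3 and 0.49 for genes that stand alone, with H19 at 0.046.

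Without control 4, knockout 1 and knockout 4, chosen after seeing the data, edgeR called 1 gene of all, 1 higher and 0 lower, and 0 imprinted genes (0 higher, 0 maternal, 0 paternal), with 3 controls against 2 knockouts. The medians were 0.31 paternal, 0.42 at Peg10, 0.065 at Peg3, 0.19 for genes that stand alone and 0.074 at Snrpn. Kdm1a was at -0.29 (adjusted p = 0.325), and Igf2r at 0.0014, Zim1 at -0.11, Mkrn3 at -0.071, Nap1l5 at -0.064 and Zrsr1 at -0.032. The cause of these shifts was not tested. Over the 12 alternatives that left out no single library, 381 of 444 values of single imprinted genes kept direction and side of the threshold, 20 lost it, 32 gained it and 11 changed sign.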
